A study of Mus musculus with 6 samples.

Results

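Keratins are the intermediate filament proteins of epithelial cells. Each filament is built from pairs of a type I and a type II keratin, and the pairs in use mark the kind of epithelium. Simple and luminal epithelium, such as the secretory layer of the prostate, carries KRT8 with KRT18, often with KRT7 and KRT19. Basal cells of layered epithelium carry KRT5 with KRT14, and KRT6A, KRT16 and KRT17 appear in hair follicles and in stressed or wounded epidermis. Here 10 keratin genes were followed in tumours of DU145, a human prostate cancer line that grew from a brain metastasis. They were taken by name, and all 10 of 10 were found among the 58884 named genes of the human table. The luminal group is KRT8, KRT18, KRT19 and KRT7, the basal group is KRT5, KRT14, KRT17 and KRT6A, and KRT80 and KRT81 belong to neither.

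The cells had been injected under the skin of male nude mice. Both groups were nude mice carrying DU145 tumours, and they differed in the treatment label: 3 tumours are labelled control and 3 are labelled Zelnorm, the brand name of tegaserod, which activates the serotonin receptor HTR4 and was given daily by mouth. Sample titles of the treated group read MBZ, which the series design equates with the Zelnorm group without saying what it stands for. The labels give neither a dose nor the age of the animals. Nude mice lack most T cells, so the host keeps only part of its immune system, and DU145 is a single line. Each tumour had a library counted for human genes in one table and for mouse genes in another. The libraries are named by column, NC10, NC4 and NC9 for control and MBZ_254, MBZ_257 and MBZ_259 for Zelnorm. Nothing in the labels ties a library to an animal, so the p-values measure the spread between these samples only.

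Counts of named human genes ran from 24495364 to 39102850 counts per library and those of mouse genes from 5798742 to 9185279. The mouse table held 15.1% (MBZ_257) to 23.4% (MBZ_254) of the counts of both. Levels are given as CPM, the count of a gene scaled to the library total of its table. In the human table the epithelial adhesion genes EPCAM (8922 to 16213 counts) and CDH1 (10844 to 16824 counts) were present in every library, as was the mesenchymal filament VIM (14660 to 27089 counts). In these bulk samples fewer cells of a type and less RNA per cell cannot be told apart.

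Luminal keratins made up nearly all keratin RNA of the tumours. Of all human keratin counts, 92.9% (NC9) to 94.4% (NC4) belonged to the 4 luminal genes and 0.952% (NC4) to 1.90% (MBZ_254) to the 4 basal genes. KRT8 and KRT18 alone held 63.5% (NC9) to 70.2% (MBZ_254). All keratin genes together took 0.429% (NC9) to 0.562% (MBZ_259) of the human counts of a library. This order held in all 6 libraries of both groups.

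No human gene length was used here, so levels of different genes were compared only per kilobase of the longest coding sequence of the mouse gene of the same symbol (GENCODE vM21). These lengths ran from 1209 to 1740 bases, a 1.44-fold range. Human counts per kilobase were scaled to the library total of all named human genes, without the scaling factors that CPM uses. On that scale KRT8 came first with a median of 1442 over the 6 libraries (1155 to 1655), before KRT18 with 1056 (807 to 1147). KRT7 followed with 683 (607 to 763) and KRT19 with 287 (251 to 371). KRT80 stood between the luminal and the basal genes with 102 (95.3 to 109). Of the basal genes KRT6A was highest at 33.2 (24.1 to 51.2), and it did not overlap with KRT17 at 7.29 (4.13 to 19.7). The ranges of KRT17 and KRT81 (median 12.8, 11.5 to 15.6) overlapped, as did those of KRT14 (0.373, 0.0518 to 0.928) and KRT5 (0.0776, 0.0216 to 0.117). The lowest luminal value, 251 for KRT19, was above the highest basal value, 51.2 for KRT6A.

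**Figure D1:**
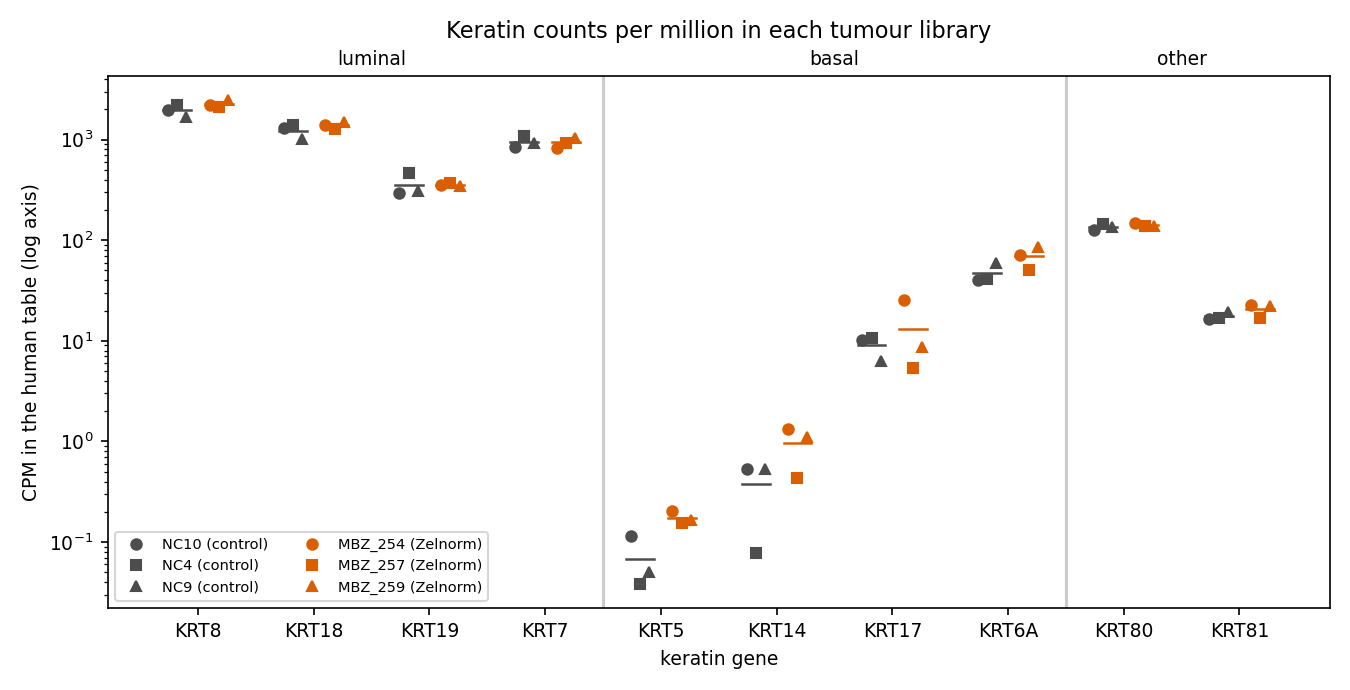
CPM in the human table (log axis, not divided by gene length) of the 10 keratins in each library, with grey for control and orange for Zelnorm and a line at each group mean. The luminal genes lie at 296 CPM or more in every library and the basal genes at 86.5 CPM or less.

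No difference between Zelnorm and control tumours in these keratins passed the test over all genes. Of the 10 members 9 had enough counts to be tested, 8 of them with a log2 fold change above 0 and 1 below, and 0 were called by edgeR's quasi-likelihood test (adjusted p = 1.00 for each). That test called 0% of the 18820 human genes, of which 49.1% had a log2 fold change above 0. In 0 of the 9 tested members did the 3 Zelnorm libraries lie apart from the 3 control libraries, a separation that 4.82% of all tested human genes showed. The median log2 fold change was 0.21 over the 9 members, 0.09 over the 4 luminal and 0.56 over the 3 tested basal genes, beside 0.00 over all tested genes. An unadjusted p under 0.05 was found for 1 member, KRT6A, and for 247 of all tested genes.

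Among the luminal genes, KRT8, the type II member of the simple epithelial pair (ENSG00000170421), was at 1968, 2220 and 1667 CPM in NC10, NC4 and NC9 and at 2198, 2095 and 2476 CPM in MBZ_254, MBZ_257 and MBZ_259. The control NC9 was lowest and the Zelnorm tumour MBZ_259 highest, and the groups overlapped. Its log2 fold change was 0.21 (SE 0.14), and 0.11 without NC9 or 0.14 without MBZ_259. KRT18, its type I partner (ENSG00000111057), was at 1301, 1385 and 1005 CPM in the controls and 1405, 1259 and 1482 CPM under Zelnorm, again lowest in NC9 and highest in MBZ_259. The log2 fold change of KRT18 was 0.17 (SE 0.15), and 0.0466 without NC9.

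KRT8 and KRT18 kept a nearly fixed ratio. There were 1.51, 1.60 and 1.66 KRT8 counts per KRT18 count in the controls and 1.56, 1.66 and 1.67 in the Zelnorm tumours, with group means of 1.59 ± 0.07 and 1.63 ± 0.06 (SD, n = 3). These ranges overlapped. Over the 6 libraries the log2 CPM of the pair, each minus its own mean, differed by a root mean square of 0.053. The other members tested lay 0.15 (KRT80) to 1.06 (KRT14) from KRT8. Some genes that are not keratins lay nearer to KRT8 than KRT18 did, such as EHD1 at 0.038.

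KRT7, a type II keratin of ducts (ENSG00000135480), was at 844, 1075 and 929 CPM in the controls and 830, 932 and 1047 CPM under Zelnorm, with a log2 fold change of -0.02 (SE 0.14). KRT19, a type I keratin of simple epithelium that lacks the usual tail domain (ENSG00000171345), was at 296, 462 and 307 CPM in the controls and 355, 371 and 345 CPM under Zelnorm, with a log2 fold change of 0.01 (SE 0.17). For both the groups overlapped and the sign turned when single libraries were left out. NC4 was the highest library of both genes. The ratio of KRT7 to KRT19 counts ran from 2.33 (NC4) to 3.04 (MBZ_259), a wider range than that of KRT8 to KRT18.

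**Figure D2:**
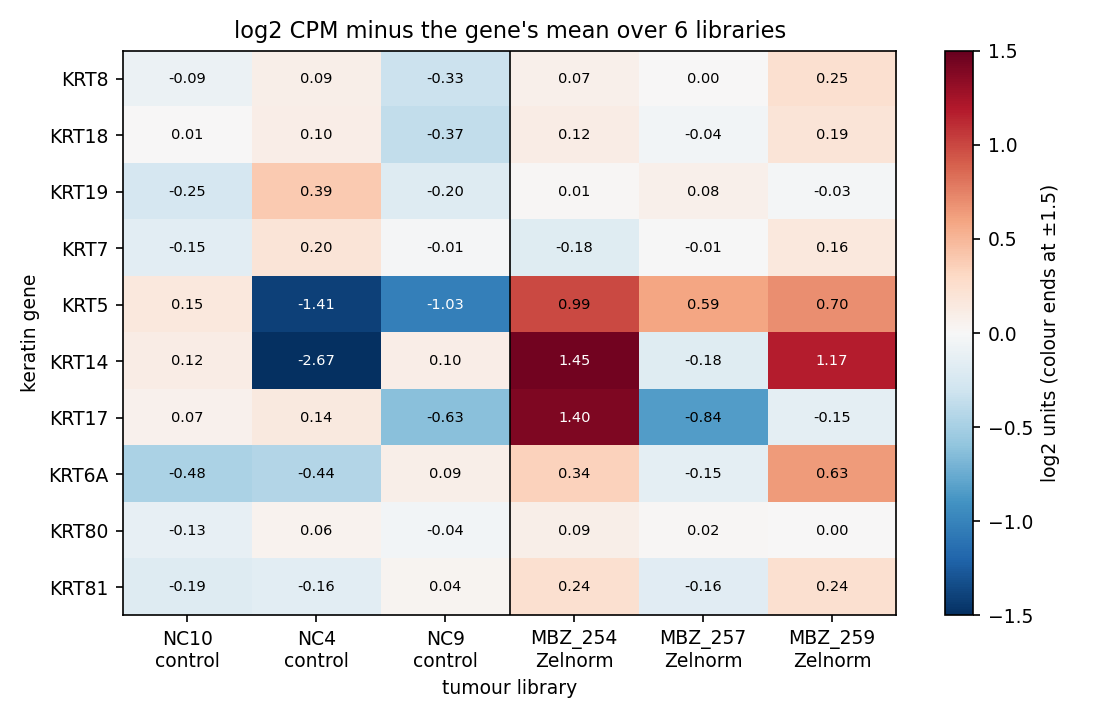
log2 CPM of each keratin minus its mean over the 6 libraries, with libraries as columns and genes as rows. KRT8 and KRT18 follow one another from library to library, while KRT14 is lowest in NC4 at -2.67 and KRT17 highest in MBZ_254 at 1.40.

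The basal keratins were sparse and uneven. KRT5, the type II keratin of basal cells (ENSG00000186081), had 3, 1 and 2 counts in NC10, NC4 and NC9 and 5, 5 and 6 counts in MBZ_254, MBZ_257 and MBZ_259. Every Zelnorm count was above every control count, but the gene was too low to be tested. Summed over a group the 16 Zelnorm and 6 control counts gave a ratio of depth-scaled counts of 2.60 (exact 95% interval 0.965 to 8.11, counting error only). KRT14, its type I partner (ENSG00000186847), had 14, 2 and 21.09 counts in control (0.531, 0.0773 and 0.527 CPM) and 33, 14 and 39.86 counts in Zelnorm tumours (1.34, 0.432 and 1.11 CPM). MBZ_254 and MBZ_259 were high, NC4 was low, and MBZ_257 lay among the controls. The log2 fold change of KRT14 was 1.29 (SE 0.60), and 0.85 without NC4.

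KRT6A, a type II keratin induced by injury (ENSG00000205420), was at 40.0, 41.0 and 59.2 CPM in the controls and 70.5, 50.3 and 86.5 CPM under Zelnorm. MBZ_259 and MBZ_254 were above every control, while MBZ_257 was below NC9. The group means were 46.8 ± 10.8 and 69.1 ± 18.1 CPM (SD, n = 3), and the log2 fold change of 0.56 (SE 0.21) had the smallest p of the members (edgeR unadjusted p = 0.024, adjusted p = 1.00). It was 0.37 without MBZ_259. Without the count filter edgeR gave KRT6A an adjusted p of 0.0724, the lowest over its 11 alternatives. KRT6A has near-identical copies, so its counts are uncertain. The copies KRT6B and KRT6C had few counts here, and KRT6A held 98.0% (NC10) to 99.3% (MBZ_257) of the sum of the 3 genes.

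KRT17, a type I keratin of hair follicles and stressed epidermis (ENSG00000128422), was at 10.1, 10.7 and 6.25 CPM in the controls and 25.5, 5.40 and 8.72 CPM under Zelnorm. The 2 extremes, MBZ_254 and MBZ_257, carry the same treatment label. The log2 fold change of 0.55 (SE 0.48) rested on MBZ_254 and was -0.34 without it. KRT16, another type I keratin of that setting and no member, was likewise highest in MBZ_254 at 5.86 CPM, against 2.41 to 3.25 CPM in the other libraries. The ratio of KRT6A to KRT17 varied between libraries: there were 2.77 (MBZ_254) to 9.92 (MBZ_259) KRT6A counts per KRT17 count.

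KRT80, a type II keratin of many epithelia (ENSG00000167767), was the steadiest member, at 126, 144 and 134 CPM in the controls and 147, 139 and 138 CPM under Zelnorm (log2 fold change 0.07, SE 0.11). KRT81, a type II keratin of the hair cortex (ENSG00000205426), was at 16.6, 17.0 and 19.5 CPM in the controls and 22.5, 16.9 and 22.4 CPM under Zelnorm. MBZ_254 and MBZ_259 were above the controls and MBZ_257 was among them, with a log2 fold change of 0.22 (SE 0.16). KRT81 has close copies among the hair keratins, which makes its counts uncertain. It held 81.1% (NC4) to 87.4% (MBZ_259) of the sum of KRT81, KRT83, KRT85 and KRT86.

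**Figure D3:**
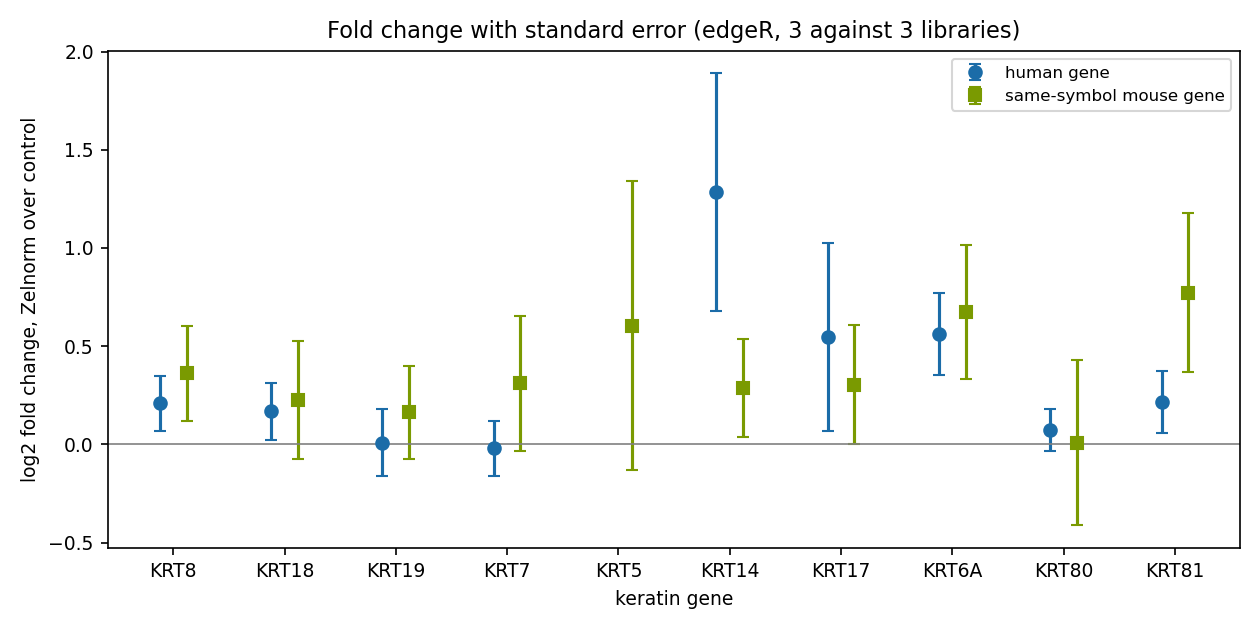
log2 fold change of Zelnorm over control with its standard error for the 9 tested human keratins (circles) and the 10 mouse genes of the same symbol (squares); KRT5 was too low in the human table to be tested. KRT14 stands highest among the human genes at 1.29, and 0 of the plotted values passed the test over all genes.

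The ratio of summed luminal to summed basal counts, which does not depend on depth, was 86.8, 99.2 and 59.2 in NC10, NC4 and NC9 and 49.1, 82.7 and 55.5 in MBZ_254, MBZ_257 and MBZ_259. On the log2 scale the group means were 6.32 ± 0.39 in control and 5.93 ± 0.39 in Zelnorm tumours (SD, n = 3). The difference of -0.39 was about as large as the spread within a group, and the groups overlapped, with NC9 below MBZ_257. No p is given for this ratio over chosen genes. KRT6A alone made up 72.3% (MBZ_254) to 89.7% (NC9) of the basal counts, so the sum follows that gene. Without KRT6A the difference was -0.20, and for KRT8 and KRT18 over KRT5 and KRT14 it was -1.38, a value that rests on the few counts of KRT5 and KRT14 given above.

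**Figure D4:**
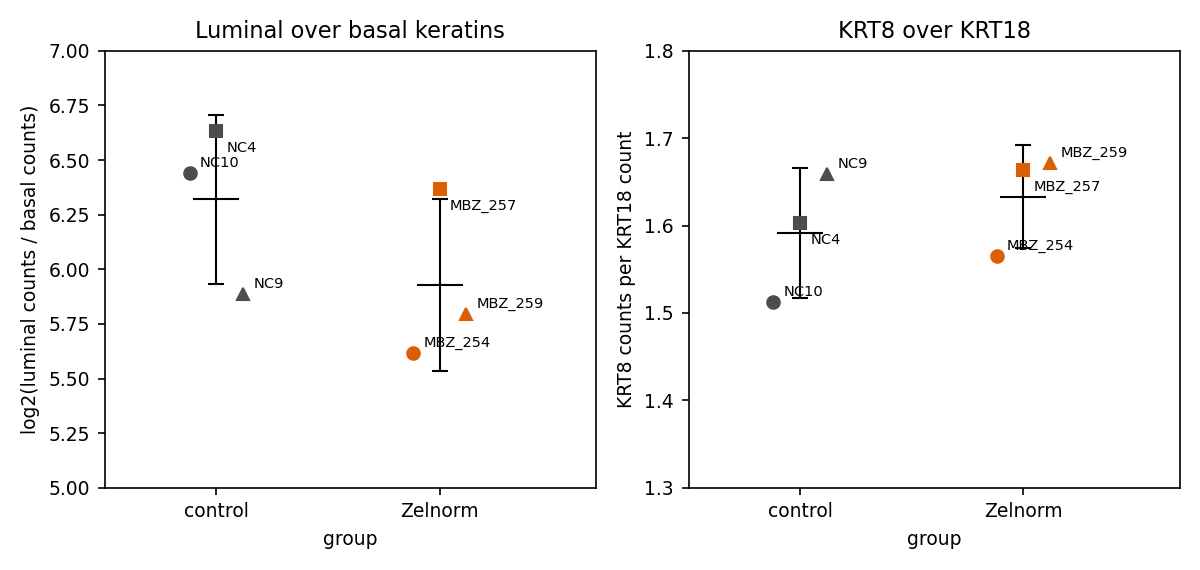
Left, log2 of luminal over basal keratin counts, and right, KRT8 counts per KRT18 count, for each library by group, with bars for mean and SD; neither axis starts at 0. The left values run from 5.62 to 6.63 with overlapping groups, and the right values stay between 1.51 and 1.67.

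Among the 3 human genes nearest in pattern to each keratin, measured as the root mean square difference of centred log2 CPM over the 6 libraries, KRT8 had EHD1 (0.038), TNFAIP8L3 (0.049) and AKAP8L (0.049). KRT18 had HIST1H2BD (0.050), PARD6G (0.052) and HOXC9 (0.066), about as near as KRT8 itself. The nearest gene to KRT7 was EIF2B3 (0.015), to KRT19 THEM5 (0.039), to KRT80 DERL1 (0.020) and to KRT81 SYCE1 (0.043). KRT6A (nearest gene SLC2A9, 0.12) and KRT17 (nearest gene JPH2, 0.25) had no gene as near, and these 2 neighbours had at most 2.85 CPM. Both keratins also varied more between libraries, with an SD of log2 CPM of 0.44 (KRT6A) and 0.78 (KRT17). The other keratins of this comparison had 0.077 (KRT80) to 0.23 (KRT19). With 6 libraries such nearness is a description only.

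The mouse table held counts for all 10 symbols, and the ratio of mouse to human counts was nearly constant for some pairs. For KRT8 the human libraries NC10, NC4 and NC9 had 51864, 57435 and 66405 counts and the mouse Krt8 (chromosome 15, 101996698 to 102004482 in GRCm38) had 5162, 6523 and 7317. In MBZ_254, MBZ_257 and MBZ_259 the human counts were 54039, 67829 and 89461 and the mouse counts 5656, 7351 and 9551. Mouse Krt8 thus stood at 9.95 (NC10) to 11.4 (NC4) counts per 100 human KRT8 counts. As a share of the pair this was 9.05% (95% Wilson interval 8.82 to 9.29, counting error only) in NC10 and 10.2% (9.97 to 10.4) in NC4. The log2 of mouse over human KRT8 counts had an SD of 0.066 over the 6 libraries, where mouse Krt8 CPM had 0.34.

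The other pairs differed in how steady this ratio was. KRT19 had 4.25 to 4.91 mouse counts per 100 human counts and an SD of 0.089 for the log2 ratio against 0.32 for mouse CPM. KRT6A had 11.9 to 15.6 per 100, with 0.15 against 0.62. KRT18 had 0.909 to 1.47 per 100 (0.24 against 0.44) and KRT7 0.333 to 0.503 per 100 (0.23 against 0.50). KRT17 had 22.3 to 39.6 per 100 (0.33 against 0.40), KRT81 1.83 to 5.32 (0.53 against 0.59) and KRT80 0.601 to 1.52 (0.548 against 0.544). The ratio of KRT80 thus varied slightly more than its mouse CPM. Among 10330 same-symbol pairs with a mean count of at least 20 in both tables the median SD was 0.39 for the log2 ratio and 0.25 for mouse CPM. The ratio varied less than mouse CPM in 2584 of those 10330 pairs. It did so in 7 of the 9 keratin pairs that reached the same mean count. KRT5 did not reach it, and over all 10 keratin pairs the number was 7.

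The basal pair stood the other way round. Mouse Krt14 had 89.16, 156.37 and 161.4 counts in the controls and 118.39, 144.46 and 192.66 in the Zelnorm tumours, 359 (MBZ_254) to 7819 (NC4) per 100 human KRT14 counts. Mouse Krt5 had 7.31, 13.87 and 30.16 counts in the controls and 7.24, 36.66 and 18.9 in the Zelnorm tumours, 145 (MBZ_254) to 1508 (NC9) per 100 human counts. Most counts of KRT14 and KRT5 over both tables were therefore mouse counts, 87.4% and 83.8%. Some genes of host fibroblasts and muscle also had counts in the human table. COL1A1 had 7214 to 23787 human counts beside 23121 to 88688 mouse counts, and MYH4 0 to 2239 beside 0 to 10579. DCN had only 0 to 2 human counts beside 1106 to 5181. The part of mouse reads in the human KRT14 and KRT5 counts, and in their group differences, was not tested.

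**Figure D5:**
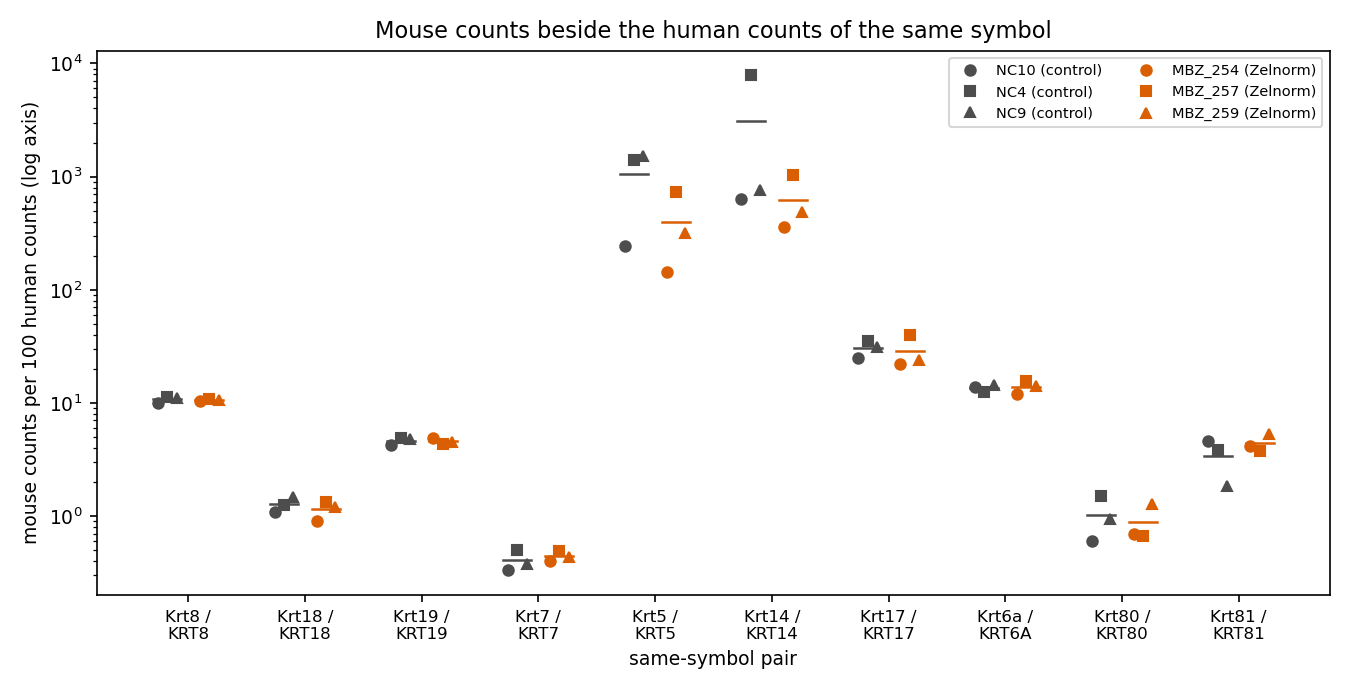
Mouse counts per 100 human counts of the same symbol (log axis) in each library, with a line at each group mean. The KRT8 pair stays between 9.95 and 11.4, while the KRT14 pair runs from 359 to 7819.

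Host cells that could carry keratins were looked for with markers. Of 13 mouse epidermal markers, which include Krt5 and Krt14 themselves, 2 (Ivl and Dsg1a) were at 0 in all libraries and 3 had enough counts to be tested. Krt1, a keratin of upper epidermis, had 2 to 7 counts, loricrin (Lor) 0 to 4 and Krt15, of basal cells, 1 to 4.51. The summed epidermal level was 28.2 to 40.2 CPM in the controls and 26.4 to 39.8 CPM under Zelnorm. Of the 3 tested markers Krt5 and Krt14 had log2 fold changes above 0, and Sbsn, suprabasin, went the other way. Sbsn was at 8.82, 11.9 and 9.67 CPM in the controls and 8.51, 2.22 and 5.94 CPM under Zelnorm, without overlap and lowest in MBZ_257, where Krt5 and Krt14 were highest (log2 fold change -0.85, SE 0.43, not called). Of 13 hair follicle markers found, 8 were at 0 in all libraries and the sum stayed between 1.40 and 2.04 CPM. Of 7 markers of simple epithelium, which would hold Krt8, the defining Epcam had 0 to 6 counts and Cdh1 6 to 39 counts per library. Esrp1 (282 to 514 counts), a splicing factor of epithelium, and Cldn7 (124 to 289 counts), a tight junction gene, ranked highest of the 7. Grhl2 followed with 70 to 118 counts. The human genes of these symbols had 1869 to 2809 (ESRP1), 1855 to 3628 (CLDN7) and 791 to 1386 (GRHL2) counts. The sum of the mouse list was 87.1 to 98.9 CPM in the controls and 77.2 to 143 CPM under Zelnorm, highest in MBZ_257. The 5 tested genes of that list had log2 fold changes above 0 (median 0.25, called 0). How reads were divided between the 2 tables is not given in any source used here, and its part in the mouse counts was not tested.

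No difference between the groups passed the test for the 10 mouse keratins either. All 10 were tested and had a log2 fold change above 0, as had 53.9% of all 14459 tested mouse genes. Their median was 0.31, beside 0.02 over all tested mouse genes. Of these 10 edgeR called 0 (adjusted p = 1.00 for each), as it called 0% of the table. The Zelnorm and control libraries overlapped for all 10, where 5.52% of all tested mouse genes did not overlap. Krt81 had the largest log2 fold change, 0.77 (SE 0.41), with at most 4.91 CPM, followed by Krt6a with 0.68 (SE 0.34). MBZ_257 was the highest library for 6 of the 10. Beside this, MBZ_257 had the lowest mouse share of counts (15.1%) and the lowest summed fibroblast marker level, 8507 CPM against 16951 to 29240 CPM in the other libraries. Without MBZ_257 the log2 fold change of Krt8 was 0.15 in place of 0.36, and those of Krt18, Krt19, Krt7 and Krt5 were below 0. The 3 tested adipocyte markers (Adipoq, Plin1 and Cidec) were lower in every Zelnorm library than in every control, with a median log2 fold change of -2.09. The summed level of the 4 adipocyte markers was 34.3 to 117 CPM in the controls and 3.66 to 25.2 CPM under Zelnorm (called 0). The summed level of 4 macrophage markers was 2034 to 2737 CPM in the controls and 2701 to 3158 CPM under Zelnorm. Of their log2 fold changes 3 of 4 were above 0 (median 0.12, called 0). Lyz2 (0.48) and Adgre1 (0.18) were higher in every Zelnorm library than in every control, and Csf1r went the other way (-0.12). The part of host composition, or of the division of reads between the 2 tables, in these mouse values was not tested.

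Few other human keratins were detected at a level that could be tested. Of 56 further keratin names, 26 had no count in any library and 11 could be tested, 4 with a log2 fold change above 0 and 7 below (median -0.09, called 0). KRT10, a type I keratin of upper epidermis, was at 29.0 ± 5.25 CPM in the controls and 23.5 ± 6.34 CPM under Zelnorm (SD, n = 3). KRT4, a type II keratin of moist layered epithelium, was at 13.1 ± 5.24 and 12.3 ± 4.32 CPM. KRT87P, a hair keratin pseudogene, was at 27.2, 28.1 and 26.8 CPM in the controls and 29.1, 32.9 and 60.1 CPM under Zelnorm, where MBZ_259 stood far above the rest (log2 fold change 0.58, SE 0.24). KRT89P had a log2 fold change of -0.40 (SE 0.24). Of 130 pseudogenes named after members 56 had no count and 5 were tested, 4 above and 1 below 0 (median 0.52, called 0). Together they held few counts, equal to 0.170% (NC4) to 0.236% (MBZ_257) of the counts of KRT8, KRT18, KRT19, KRT17 and KRT7. Reads of KRT8 and KRT18 can be split with such copies. The highest of them, KRT8P12, was at 2.89 ± 0.05 CPM in the controls and 4.08 ± 0.90 CPM under Zelnorm. KRT18P5 and KRT18P34 had log2 fold changes of 0.56 (SE 0.35) and 0.52 (SE 0.33). Of the 6 near copies of KRT6A, KRT81 and KRT17 4 were tested, 2 above and 2 below 0 (median -0.10, called 0), with KRT83 at -0.43 (SE 0.34), KRT86 at 0.06 (SE 0.25) and KRT16 at 0.31 (SE 0.32).

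Genes that anchor keratin filaments had log2 fold changes on both sides of 0, from -0.31 (SE 0.40) for PKP1, a plakophilin, to 0.17 (SE 0.14) for PKP2, another. Of 15 desmosome genes 11 were tested, 5 above and 6 below 0 (median -0.03, called 0). DSP, the desmoplakin that ties keratins to desmosomes, was at 1422 ± 255 CPM in the controls and 1455 ± 400 CPM under Zelnorm, JUP, plakoglobin, at 389 ± 103 and 381 ± 56.0 CPM, and DSG2, a desmosomal cadherin, at 466 ± 62.8 and 473 ± 20.1 CPM. The log2 fold change of PPL, periplakin, was -0.16 (SE 0.16). Of the 6 hemidesmosome and linker genes 3 were above and 3 below 0 (median -0.02, called 0), with PLEC, plectin, at 597 ± 77.8 and 606 ± 47.6 CPM. CD151, a tetraspanin of hemidesmosomes, was at 250 ± 19.1 and 256 ± 16.3 CPM, DST, dystonin, at 328 ± 90.6 and 303 ± 50.9 CPM, and COL17A1 had a log2 fold change of -0.11 (SE 0.25).

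Other intermediate filament genes were 5 above and 7 below 0 of 12 tested (median -0.01, called 0). VIM, vimentin, was at 643 ± 68.9 CPM in the controls and 639 ± 184 CPM under Zelnorm. LMNA, the nuclear lamin A/C gene, was at 385 ± 59.4 and 388 ± 24.4 CPM and LMNB2 at 251 ± 33.8 and 250.5 ± 18.6 CPM. On the log2 scale NES, nestin, stood at a fold change of -0.50 (SE 0.24) and LMNB1 at -0.14 (SE 0.13). Of the 6 keratin partners 3 were above and 3 below 0 (median 0.01, called 0). HSPB1, a small heat shock protein, was at 67.5, 84.3 and 69.3 CPM in the controls and 96.5, 59.3 and 219 CPM under Zelnorm, high in MBZ_259 alone. SFN, the epithelial 14-3-3 protein, was at 178 ± 27.0 and 209 ± 59.0 CPM and FAM83H at 170 ± 30.4 and 156 ± 1.99 CPM.

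Of 14 epithelial transcription factors 13 were tested, 5 above and 8 below 0 (median -0.01, called 0). TP63, the master factor of basal epithelium, had at most 16 counts, a level of 0.185 to 0.443 CPM. ELF3, a factor of simple epithelium, was at 123 ± 23.7 CPM in the controls and 121 ± 18.9 CPM under Zelnorm, EHF at 99.5 ± 13.0 and 103 ± 27.5 CPM and TFAP2A at 65.8 ± 3.04 and 65.6 ± 5.58 CPM. The low factors OVOL1 and GRHL3 had log2 fold changes of 0.86 (SE 0.39) and -0.43 (SE 0.31). Of the cornified envelope genes 19 were found and 7 tested, 6 above and 1 below 0 (median 0.14, called 0). S100A9, a calcium-binding protein of stressed epidermis, was at 71.9, 69.0 and 75.6 CPM in the controls and 72.7, 69.2 and 197 CPM under Zelnorm. MBZ_259 was thus the highest library for S100A9, HSPB1, KRT87P, KRT8, KRT18 and KRT6A. The other members peaked elsewhere in CPM, KRT5, KRT14, KRT17, KRT80 and KRT81 in MBZ_254 and KRT7 and KRT19 in NC4. FLG, filaggrin, was at 14.6 ± 2.32 and 13.3 ± 2.57 CPM and SCEL, sciellin, at 26.7 ± 10.1 and 27.4 ± 6.94 CPM. MBZ_259 also had the highest summed level of mouse skeletal muscle markers, 4678 CPM against 68.5 to 1876 CPM in the other libraries, whose part in these human values was not tested.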

How the data were processed

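RNA of 6 tumours was measured. The authors deposited unscaled estimated counts, one value per gene and library, for human and mouse genes. HISAT2, StringTie, DESeq2, edgeR, GRCh38 and GRCm38 are named per the submitters' processing notes, without versions or roles. Among values above 0, 38.0% (human) and 27.0% (mouse) were not whole, so counts were rounded first. Rows without a gene name held 0.317% to 0.518% of a library's counts and were left out.

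Each table was fitted with edgeR 4.0.16 in R 4.3.3 (filterByExpr, TMM scaling, glmQLFit and glmQLFTest, two-sided), Zelnorm against control, with Benjamini-Hochberg adjustment over all tested genes and calls under 0.05. CPM uses the total of tested genes times the TMM factor. SE is derived from the F statistic. The fit was tested on simulated data. No scale was shared between human and mouse.

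Members and lists were chosen with earlier results of these data known. Of each other list, the 3 tested genes highest in CPM and the 2 with the smallest p are named, and of likeness the nearest 3 for genes of at least 10 CPM, of which the text gives at least the first. KRT16, PKP1, TP63 and host markers given as counts were in part chosen after their values were seen. DESeq2 1.42.0 and limma 3.58.1 (voom) were alternatives.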

Additional observations from a re-analysis of the deposited data

How the results depend on the processing

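edgeR's call of 0 human and 0 mouse genes became 1 human and 6 mouse genes with DESeq2, and 61 human and 2 mouse genes without the count filter. Other scaling, unrounded counts, limma-voom and each left-out library gave 0 (lowest 0, highest 0). Among 99 alternative values of the 9 tested keratins and 110 of the 10 mouse keratins, 0 were called. The sign turned in 6 and 9 of them. With 1 library left out, log2 fold changes ran from -0.10 to 0.24 for KRT19, from -0.11 to 0.0794 for KRT7 and from -0.34 (without MBZ_254) to 0.92 for KRT17. The single values that turned sign were -0.10, -0.08 and -0.02 for KRT19 and 0.0794 and 0.0604 for KRT7. Among mouse genes the ranges were -0.10 to 0.51 for Krt18, -0.0931 to 0.31 for Krt19, -0.0346 to 0.59 for Krt7, -0.43 to 1.11 for Krt5, -0.00061 to 0.53 for Krt17 and -0.30 to 0.30 for Krt80, and limma-voom gave -0.0268 for Krt80. The luminal over basal difference of -0.39 was -0.89 as a difference of mean log2 CPM and -1.38 for KRT8 and KRT18 over KRT5 and KRT14, and ran from -0.61 to -0.24 with 1 library left out. Both of the former give the sparse KRT5 and KRT14 more weight by construction. With mouse counts added, chosen after seeing the data, it was -0.36. No paired analysis was possible because the labels pair no control tumour with a Zelnorm tumour. The columns also carry none of the replicate numbers of the labels. Counts of KRT5 and KRT14 limit what can be seen of the basal pair.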
